A study of Rattus norvegicus with 6 samples.

Results

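The Nrf2 antioxidant response was examined through 10 genes in the myocardium of rats with and without ischemia, namely Nfe2l2, Keap1, Hmox1, Nqo1, Gclc, Gclm, Txnrd1, Srxn1, Sod1 and Sod2. They were taken by their names from a table of 32623 rat genes. The gene-name column held 9 of the 10. For Srxn1, the description column of 1 row with the placeholder name AABR07054319 gave the NCBI gene number of Srxn1, and that row is given apart from the 9. RNA sequencing of total RNA covered 3 sham samples and 3 samples with ischemia, all labelled as wild type, as myocardial tissue and as 30 min. The study describes ischemia of 30 min, and the labels do not say whether the 30 min is also the time from ligation to sampling. Levels are given as FPKM, reads per kilobase of gene scaled to library size, and a gene is said to have risen, fallen or passed where its adjusted p from the edgeR count test was under 0.05. The labels of both groups describe male rats and give anesthesia with assisted ventilation and a left thoracotomy. In the ischemia rats the left anterior descending coronary artery was then tied around a tube. No strain or age was given in the sources used here, and the piece of myocardium that was taken is not described.

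Nfe2l2 encodes Nrf2, a transcription factor that switches on genes for antioxidant defence. In resting cells Keap1, an adaptor of a Cul3 ubiquitin ligase, holds Nrf2 and directs its degradation, and oxidants or electrophiles that modify cysteines of Keap1 stop this. Nrf2 then pairs with small Maf proteins on antioxidant response elements, where the repressor Bach1 competes with it. Because Nrf2 is controlled mainly through the stability of its protein, the level of Nfe2l2 RNA does not measure its activity. In the heart, ischemia and reperfusion are known sources of reactive oxygen species, against which this system acts.

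Hmox1 and Txnrd1 were the 2 genes of the set that rose after ischemia, where 5.18% of all tested genes were higher. Both calls were lost when any sham sample or ischemia replicate 3 was omitted, with a replicate block and with an atrial marker covariate. In each of these settings 0 of all tested genes were called, so the loss was not particular to these 2 genes. Hmox1, which encodes the inducible heme oxygenase, was 23.5-fold higher, and Txnrd1, the cytosolic thioredoxin reductase, was 2.82-fold higher. Gclc, Sod2 and Nfe2l2 had higher FPKM in each ischemia sample than in any sham sample, as did 23.6% of all tested genes, without passing the adjusted threshold, and Sod2 overlapped on another scaling of the counts. Keap1, Nqo1 and Gclm had log2 fold changes between -0.02 and 0.07. Sod1, the most abundant of the 9 genes, had a log2 fold change of -0.42, which did not pass.

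The proximal promoters of these genes are shown first, because the antioxidant response element is the DNA sequence through which Nrf2 acts. RefSeq promoters of the GRCr8 build, 250 bases before to 50 bases after each start, were found for 9 of the 10 genes, all but Hmox1, with 10 entries because Txnrd1 has 2. The element was searched on both strands as TGACNNNGC. Its first letters overlap with AP-1 sites (TGANTCA), so that one stretch can match both. A match upstream of the start was found for Txnrd1, Gclm and Sod2. In each of these, printed 5′ to 3′ on the strand of the gene with 25 bases on either side, the capitals mark the match, which is on the opposite strand and therefore reads as its reverse complement. The regions are chr7:22755949-22756007 for Txnrd1 (minus strand), chr2:213031938-213031996 for Gclm (plus strand) and chr1:50050170-50050228 for Sod2 (minus strand).
Txnrd1: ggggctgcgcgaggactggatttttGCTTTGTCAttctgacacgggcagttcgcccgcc
Gclm: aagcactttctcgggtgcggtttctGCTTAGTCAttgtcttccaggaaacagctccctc
Sod2: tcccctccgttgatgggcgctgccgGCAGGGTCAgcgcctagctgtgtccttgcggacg

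The matches began 78, 172 and 35 bases before the start of Txnrd1, Gclm and Sod2. Nfe2l2 also had a match, 39 bases into the transcript. In all, 4 of the 10 promoter entries (40%) held the element, against 12.1% of all 33469 promoters. Keap1, Nqo1, Gclc, Srxn1 and Sod1 had no match in this window, and Srxn1 had 2 AP-1 matches, a motif found in 7.33% of all promoters. Of the 3 genes with an upstream match, Txnrd1 rose, Sod2 did not pass and Gclm had a log2 fold change near 0. A match in these letters is a description only, and binding of Nrf2 was not measured.

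Several properties of the libraries varied beside the study groups. Total counts ranged from 68529126 to 79591989 per sample. Summed FPKM of 7 atrial markers was 48405 and 39388 in sham replicates 1 and 3 but 223 in sham replicate 2, and it was 9626, 2081 and 1286 in the ischemia samples. Counts over 4 Y-linked genes came to 26 in sham replicate 1 and to between 1772 and 4366 elsewhere, while all rats were described as male. Summed FPKM of 11 cardiomyocyte markers was lowest in ischemia replicate 2, at 17846, and between 32040 and 61526 elsewhere, so the tissue label was borne out in each library. Of 14 tested neutrophil and monocyte markers, 11 were higher in ischemia in the main edgeR fit, against 5.18% of all tested genes. With the replicate block, the atrial covariate or any sham sample or ischemia replicate 3 omitted, 0 of all tested genes were called. The summed FPKM of the 16 markers with a row was 34.6 to 73.1 in sham against 1514, 4304 and 922 in the ischemia samples. In bulk tissue, more cells of a type and more RNA per cell cannot be told apart.

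The inducible heme oxygenase was considered first. Hmox1 opens the heme ring and releases carbon monoxide, iron and biliverdin, and it is a classic target that Nrf2 activates and Bach1 represses. The gene (ENSRNOG00000014117) is listed on the plus strand of chromosome 19, bases 14508616 to 14515456. FPKM of Hmox1 was 5.27, 5.27 and 7.93 in the sham samples, in replicate order, and 74.1, 324 and 77.7 in the ischemia samples. The lowest ischemia sample was thus 9.35 times the highest sham sample, and ischemia replicate 2 stood 4.16 times above the next. Behind these values stood 630, 670 and 901 reads for sham, and 9567, 37998 and 8641 reads for ischemia. The sham mean was 6.16 ± 1.53 FPKM and the ischemia mean 158 ± 143 FPKM (SD, n = 3 each). On the log2 scale Hmox1 was higher by 4.55 ± 0.66 (SE; edgeR adjusted p 0.0292), a value that ranked 140 among 13964 tested genes. The exact permutation p of the FPKM difference was 0.1, the smallest that 3 samples against 3 allow.

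**Figure D1:**
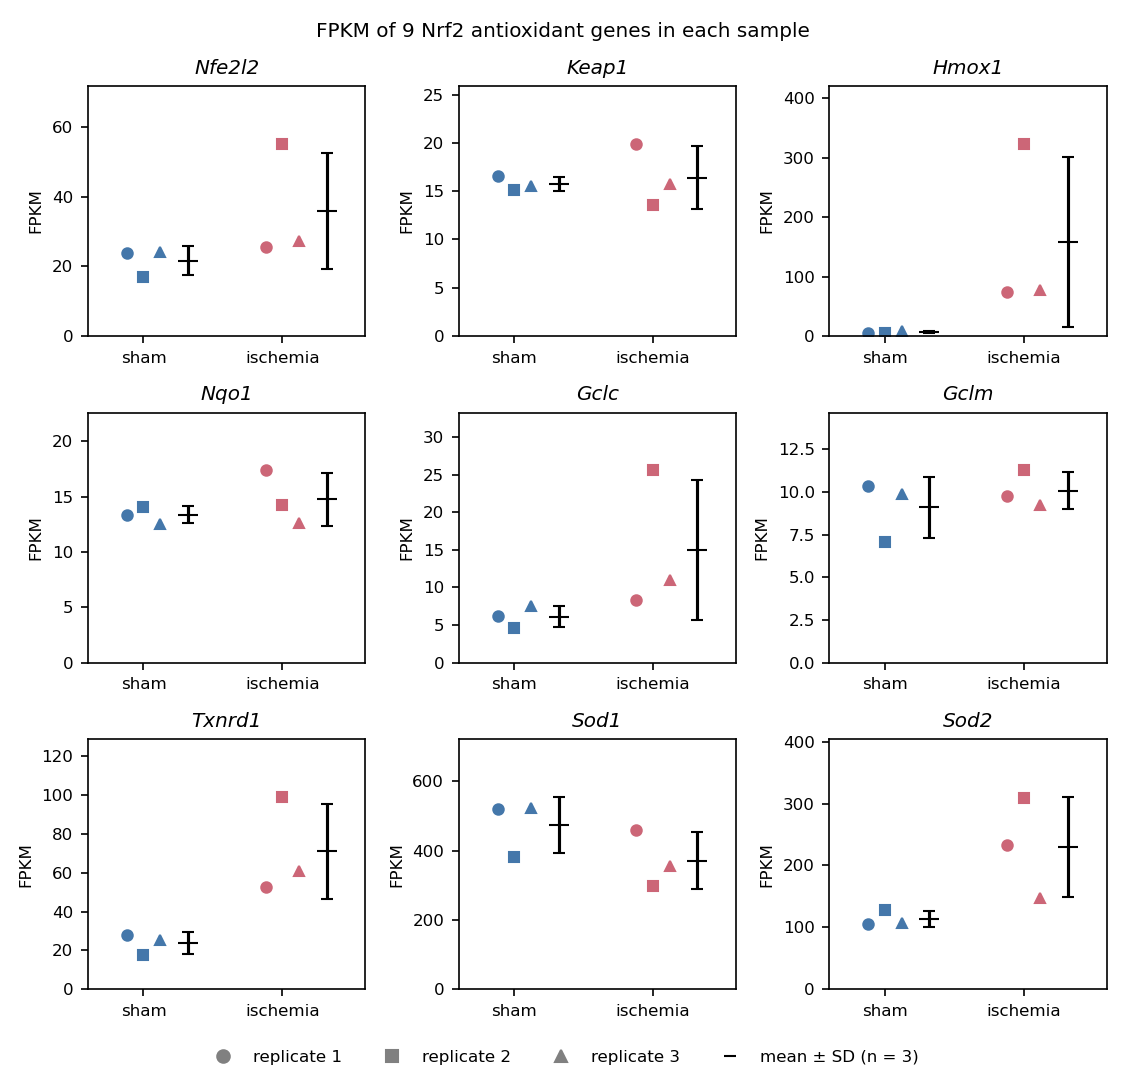
FPKM of 9 genes of the Nrf2 antioxidant response in each sample, with 1 panel per gene, FPKM on a linear axis from 0, blue for sham and red for ischemia, the symbol giving the replicate number and the bar the mean ± SD (n = 3). Hmox1, Txnrd1, Gclc, Sod2 and Nfe2l2 do not overlap between the groups, and ischemia replicate 2 is the highest sample for 6 of the 9 genes.

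Without ischemia replicate 2 the log2 fold change of Hmox1 was 3.59 (edgeR adjusted p 0.0166). The call was lost without sham replicate 1 (edgeR adjusted p 0.158), 2 (0.0820) or 3 (0.129) or ischemia replicate 3 (0.110). The log2 fold change then still lay between 4.42 and 4.85. The call was also lost with the replicate block (edgeR adjusted p 0.0943) and with an atrial marker covariate (0.197). In these settings 0 of all tested genes were called. With sham replicate 2 as the only sham sample the log2 fold change of Hmox1 was 4.55. The neutrophil and monocyte marker sum was also higher in each ischemia sample than in any sham sample, and their part in the result was not tested. Of 10 genes listed as resident macrophage markers, 2 were higher, Cd68 and Cd163, against 5.18% of all genes. In FPKM, 4 of the 10 lay wholly higher in ischemia and 2 wholly lower, against 23.6% and 15% of all tested genes. Beside the called pair, Mrc1 at 1.25 and Csf1r at 1.06 on the log2 scale lay wholly higher. C1qa at -0.66 and C1qc at -0.42 lay wholly lower. Adgre1, with overlap, had the lowest value of the 10, at -1.13 (edgeR adjusted p 0.135). The summed FPKM of the 10 was 208 to 298 in sham and 252 to 399 in ischemia, with overlap.

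**Figure D2:**
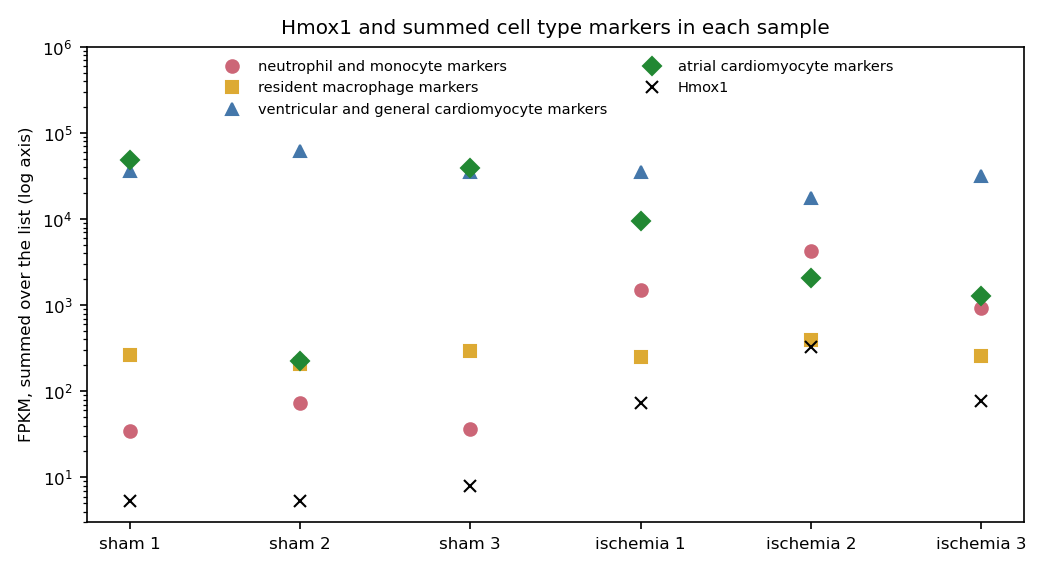
FPKM on a log axis, for each of the 6 samples, of Hmox1 (crosses) and summed over the listed markers of neutrophils and monocytes (circles), resident macrophages (squares), ventricular and general cardiomyocytes (triangles) and atrial cardiomyocytes (diamonds). Hmox1 and the neutrophil and monocyte sum are both highest in ischemia replicate 2, and the atrial sum is high in sham replicates 1 and 3.

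Thioredoxin reductase 1 was the other gene that rose. Txnrd1 is a selenoprotein that uses NADPH to keep cytosolic thioredoxin reduced. The table places it (ENSRNOG00000009088) on the minus strand of chromosome 7, bases 26946125 to 26984400. FPKM of Txnrd1 was 28.1, 17.5 and 25.6 in sham and 52.8, 99.1 and 61.2 in ischemia, in replicate order. Each ischemia sample exceeded the highest sham sample at least 1.88 times, and ischemia replicate 2 was again the highest. The sham mean was 23.7 ± 5.56 FPKM and the ischemia mean 71.0 ± 24.7 FPKM (SD, n = 3 each). Txnrd1 was higher by 1.50 ± 0.26 (SE) on the log2 scale (edgeR adjusted p 0.0361), and its exact permutation p was 0.1. Between 4867 and 25515 reads per sample lay behind these values, which makes the counting error of these values small beside the spread between samples. Its log2 fold change stayed between 1.25 and 1.65 when single samples were omitted. The call was lost without sham replicate 1 (edgeR adjusted p 0.159), 2 (0.0862) or 3 (0.140) or ischemia replicate 3 (0.122). It was also lost with the replicate block (edgeR adjusted p 0.113) and with the atrial covariate (0.224). In these settings 0 of all tested genes were called. With sham replicate 2 alone as sham the log2 fold change of Txnrd1 was 1.70.

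The sensor pair showed no change that passed the test. Nfe2l2, on the minus strand of chromosome 3, bases 62497571 to 62524996, had FPKM of 23.9, 16.8 and 24.0 in sham and 25.6, 55.2 and 27.2 in ischemia. Ischemia replicates 1 and 3 lay just above the highest sham sample, by a factor of 1.06 for the lower of them, while ischemia replicate 2 was 2.30 times that sham sample. The means were 21.6 ± 4.12 and 36.0 ± 16.7 FPKM (SD, n = 3 each). The log2 fold change of Nfe2l2 was 0.64 ± 0.29 (SE; edgeR adjusted p 0.177), and it was 0.27 without ischemia replicate 2. Keap1, on the minus strand of chromosome 8, bases 22250518 to 22259779, had FPKM of 16.5, 15.1 and 15.6 in sham and 19.9, 13.5 and 15.7 in ischemia. Values of the groups overlapped, with ischemia replicate 1 the highest of all samples and ischemia replicate 2 the lowest. Keap1 averaged 15.7 ± 0.730 in sham, against 16.4 ± 3.24 FPKM with ischemia (SD, n = 3 each). The log2 fold change of Keap1 was -0.02 ± 0.21 (SE; edgeR adjusted p 0.945), and its sign depended on the scaling, with 0.06 when counts were scaled to totals alone.

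Glutathione synthesis depends on glutamate-cysteine ligase, which joins a catalytic subunit, Gclc, and a modifier subunit, Gclm, and which limits the rate of the pathway. Both are Nrf2 targets. Gclc is listed on the plus strand of chromosome 8, bases 85059051 to 85097468 and Gclm on the plus strand of chromosome 2, bases 225827504 to 225847874. FPKM of Gclc was 6.17, 4.67 and 7.56 in sham and 8.36, 25.6 and 11.0 in ischemia. No overlap was seen between the groups, and ischemia replicate 1 lay 1.11 times above the highest sham sample. Gclc averaged 6.13 ± 1.44 in sham, against 15.0 ± 9.27 FPKM with ischemia (SD, n = 3 each). With a log2 fold change of 1.19 ± 0.40 (SE), Gclc did not pass (edgeR adjusted p 0.105, unadjusted p 0.0221). Without ischemia replicate 2 the value of Gclc was 0.64. It passed without ischemia replicate 1, at 1.45 (edgeR adjusted p 0.0402), and with DESeq2 (adjusted p 0.0327). FPKM of Gclm was 10.3, 7.06 and 9.89 in sham and 9.74, 11.3 and 9.21 in ischemia. Values of the groups overlapped, at means of 9.10 ± 1.78 and 10.1 ± 1.07 FPKM (SD, n = 3 each) and a log2 fold change of 0.07 ± 0.18 (SE; edgeR adjusted p 0.801).

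NAD(P)H quinone dehydrogenase 1, encoded by Nqo1, reduces quinones and is often read as a marker of Nrf2 activity. The gene is listed on the plus strand of chromosome 19, bases 38422164 to 38437180. Its FPKM was 13.4, 14.1 and 12.6 in sham and 17.4, 14.3 and 12.6 in ischemia. Ischemia replicate 1 was the highest sample, and the other ischemia samples lay within or close to the sham range. Nqo1 averaged 13.3 ± 0.767 in sham, against 14.7 ± 2.43 FPKM with ischemia (SD, n = 3 each). The log2 fold change of Nqo1 was 0.04 ± 0.22 (SE; edgeR adjusted p 0.910), and its sign changed with the filter on low values and when single samples were omitted. Ischemia replicate 2, which had the highest Hmox1, Txnrd1, Gclc and Nfe2l2, was therefore not the highest sample for Nqo1.

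Sulfiredoxin, which returns overoxidized peroxiredoxins to their active form, was read from the row carrying the NCBI gene number of Srxn1, 296271, on the plus strand of chromosome 3, bases 147609095 to 147632801. Its counts were low, with 54, 56 and 64 in sham and 100, 371 and 152 in ischemia. FPKM was 0.953, 0.935 and 1.19 in sham and 1.64, 6.76 and 2.92 in ischemia, so that the groups did not overlap. The row averaged 1.03 ± 0.140 in sham, against 3.77 ± 2.66 FPKM with ischemia (SD, n = 3 each). Its log2 fold change was 1.74 ± 0.55 (SE), which did not pass (edgeR adjusted p 0.0927, unadjusted p 0.0172). The row passed with DESeq2 (adjusted p 0.0211) and, in edgeR, without ischemia replicate 1 (adjusted p 0.0364). Without ischemia replicate 2 its log2 fold change was 1.11 (edgeR adjusted p 0.182).

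The superoxide dismutases convert superoxide to hydrogen peroxide, Sod1 with copper and zinc in the cytosol and Sod2 with manganese in the mitochondrial matrix. Sod1 is listed on the plus strand of chromosome 11, bases 30363280 to 30368862 and Sod2 on the minus strand of chromosome 1, bases 47914759 to 47921587. FPKM of Sod2 was 106, 128 and 107 in sham and 233, 309 and 148 in ischemia. On this scale the groups did not overlap, but on counts scaled by trimmed mean of M-values (TMM) ischemia replicate 3 lay just below sham replicate 2, at 324 against 328 CPM. With means of 114 ± 12.6 and 230 ± 80.9 FPKM (SD, n = 3 each), Sod2 had a log2 fold change of 0.88 ± 0.31 (SE; edgeR adjusted p 0.113, unadjusted p 0.0259), and DESeq2 gave an adjusted p of 0.0422. FPKM of Sod1 was 519, 381 and 522 in sham and 459, 297 and 356 in ischemia. Values of the groups overlapped, because ischemia replicate 1 exceeded sham replicate 2. On TMM-scaled counts Sod1 lay wholly lower in ischemia, with 340, 310 and 338 CPM for sham against 307, 182 and 248 CPM. Means were 474 ± 80.7 and 371 ± 82.1 FPKM (SD, n = 3 each), and Sod1 had a log2 fold change of -0.42 ± 0.24 (SE; edgeR adjusted p 0.256). The neutrophil and monocyte markers were higher in the same ischemia samples as Sod2, and their part in its value was not tested.

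All 9 genes with a row passed the filter on low values. Over these 9, 2 were higher and 0 were lower at an edgeR adjusted p under 0.05. Among all 13964 tested genes 6.71% passed, 5.18% as higher and 1.53% as lower. At an unadjusted p under 0.05 there were 4 of the 9 genes, all higher and none lower, against 32.4% of all tested genes. In FPKM, 5 of the 9 genes lay wholly higher in ischemia and 0 wholly lower, against 23.6% and 15% of all tested genes. On TMM-scaled counts Sod2 overlapped and Sod1 lay wholly lower. The median log2 fold change was 0.64 over the 9 genes and -0.0015 over all tested genes, and 7 of the 9 were above 0. Without ischemia replicate 2 the median of the 9 was 0.27. DESeq2 called 4 of the 9 genes higher and 0 lower, against 14.8% and 12.5% of all tested genes. With limma on log2(FPKM + 0.1), 2 of the 9 were higher and 0 lower, against 6.09% and 1.88%. Two-sided exact permutation p-values of the FPKM differences were 0.1 for the 5 genes without overlap, 0.2 for Sod1, 0.4 for Nqo1, 0.6 for Gclm and 0.8 for Keap1.

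**Figure D3:**
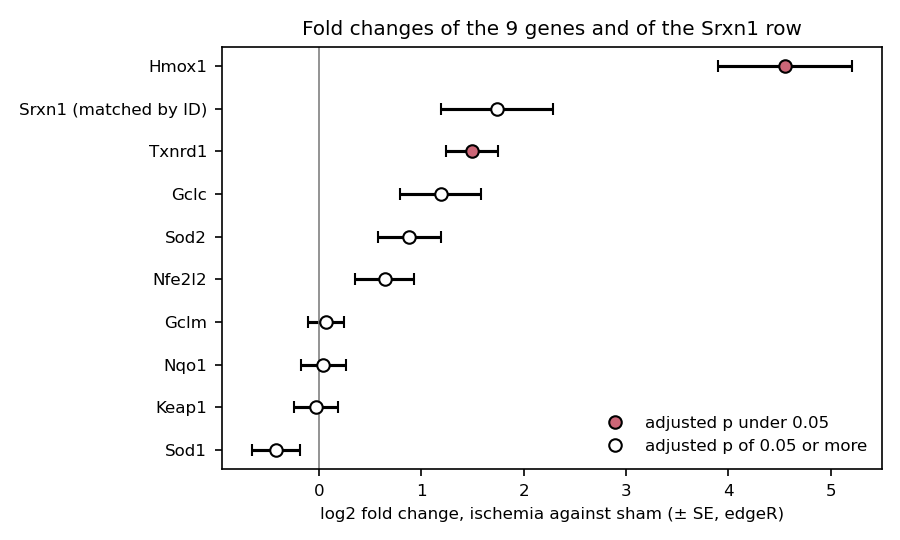
Log2 fold change of ischemia against sham (horizontal axis) with its SE from edgeR for the 9 genes and the Srxn1 row, filled where the adjusted p is under 0.05. Hmox1 and Txnrd1 are filled, while Gclm, Nqo1 and Keap1 lie at 0 within their SE.

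FPKM accounts for gene length, so the levels of the genes could be set in order. In sham the order of mean FPKM was Sod1, Sod2, Txnrd1, Nfe2l2, Keap1, Nqo1, Gclm, Hmox1 and Gclc, from 474 ± 80.7 to 6.13 ± 1.44 (SD, n = 3). Neighbours in that order from Txnrd1 to Nfe2l2, and from Hmox1 to Gclc, differed by less than their SD. In ischemia Hmox1 stood between Sod2 at 230 ± 80.9 and Txnrd1 at 71.0 ± 24.7 (SD, n = 3), and Gclm was last at 10.1 ± 1.07. Hmox1 differed from either neighbour by less than its own SD, as did Keap1, Gclc and Nqo1 among themselves. The sample of ischemia replicate 2 was the highest ischemia sample for 6 of the 9 genes and the lowest for Keap1 and Sod1.

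Ratios of FPKM within a sample do not depend on how libraries are scaled, and 5 pairs of related genes were compared in this way with two-sided exact permutation tests on log2 ratios. The ratio of Gclc to Gclm was 0.596, 0.662 and 0.764 in sham and 0.859, 2.27 and 1.20 in ischemia. Thus the balance of the 2 subunit RNAs lay further toward the catalytic subunit in every ischemia sample. The ratio of Sod2 to Sod1 was 0.204, 0.337 and 0.205 in sham and 0.507, 1.04 and 0.415 in ischemia, again without overlap. Sod2 RNA was below Sod1 RNA in 5 of the 6 samples, and ischemia replicate 2 was the exception.

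Inducible and constitutive forms were set against each other in the same way. Hmox2 encodes the constitutive heme oxygenase, and the ratio of Hmox1 to Hmox2 was 0.197, 0.174 and 0.309 in sham and 2.40, 12.4 and 2.86 in ischemia. Txnrd2 is the mitochondrial thioredoxin reductase, and the ratio of Txnrd1 to Txnrd2 was 1.38, 0.541 and 1.26 in sham and 1.96, 8.66 and 3.46 in ischemia. For both, the groups did not overlap. The ratio of Nfe2l2 to Keap1 was 1.45, 1.12 and 1.54 in sham and 1.29, 4.08 and 1.73 in ischemia, with overlap. The exact permutation p was 0.1 for the 4 ratios without overlap and 0.4 for Nfe2l2 to Keap1, and 0.125 and 0.4 after Benjamini-Hochberg adjustment over the 5 ratios. With 3 samples against 3 no ratio could have gone below 0.1. The ratios were chosen after the values were seen, and each numerator gene itself lay wholly higher in ischemia in FPKM. These p-values are therefore a description only.

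**Figure D4:**
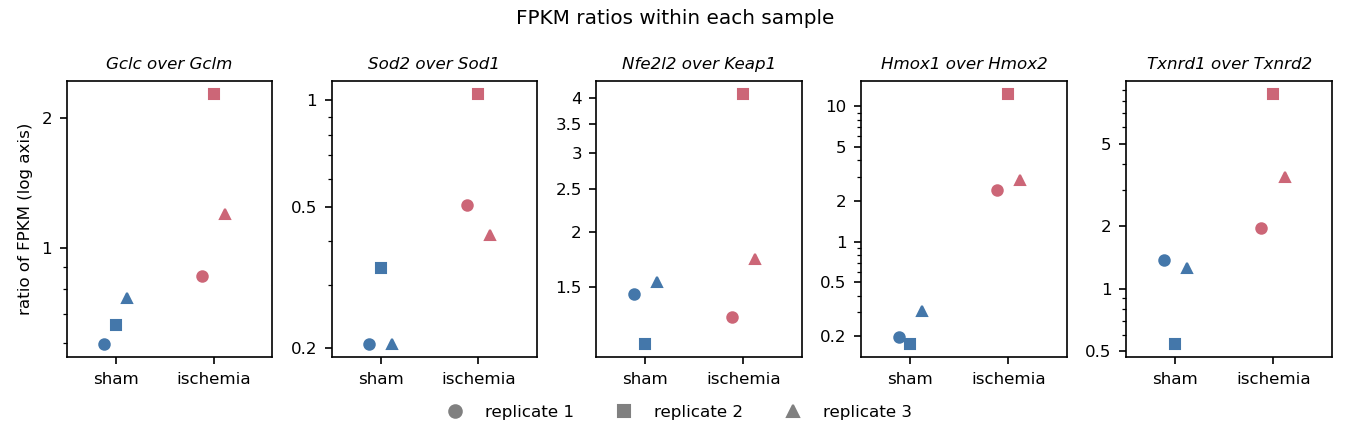
Ratio of FPKM of 5 pairs of related genes within each sample, on log axes whose ranges differ between panels, with blue for sham, red for ischemia and the symbol giving the replicate number. The groups overlap only for Nfe2l2 to Keap1, and ischemia replicate 2 has the highest ratio in each panel.

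Partners and regulators of Nrf2 were read from a list of 14 genes, of which 13 were tested. Pgam5, a mitochondrial phosphatase that binds Keap1, was the 1 gene that rose, and 0 fell, with 5 higher and 1 lower at an unadjusted p under 0.05, a threshold that 32.4% of all tested genes passed. FPKM of Pgam5 was 12.6, 12.2 and 12.3 in sham and 32.9, 45.6 and 38.0 in ischemia. All sham samples were nearly level and each ischemia sample was well above them. Pgam5 had a log2 fold change of 1.55 ± 0.18 (SE; edgeR adjusted p 0.0272). In edgeR 0 partners were called higher with the replicate block, the atrial covariate or the omission of any sham sample or ischemia replicate 3. Of all tested genes, 0 were called in these settings. Without ischemia replicate 1, 5 partners were called higher, against 1490 of all 13964 tested genes.

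The small Maf proteins, which lack a transactivation domain and pair with Nrf2 or Bach1, had positive log2 fold changes without passing. Maff had the highest value of the list, 1.88 ± 0.62 (SE; edgeR adjusted p 0.104), with FPKM of 8.71, 8.31 and 9.74 in sham and 12.8, 76.2 and 20.0 in ischemia. Mafk and Mafg had 1.14 and 0.77 (edgeR adjusted p 0.0514 and 0.0623), and their ischemia samples lay above all sham samples. Bach1 had 1.06 ± 0.50 (SE; edgeR adjusted p 0.188), with FPKM of 8.74 in ischemia replicate 2 against 1.88 to 3.07 in the other samples. The lowest value belonged to Bach2, a relative of Bach1 known mainly from lymphocytes, at -1.39 ± 0.42 (SE; edgeR adjusted p 0.0862). The median of the 13 genes was 0.51, with 10 above 0, and the share called, 7.69%, was near the 6.71% of all genes.

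Other Nrf2 target genes were read from a list of 36, of which 34 had a row and 30 were tested. At an edgeR adjusted p under 0.05, 2 rose and 1 fell, which is 10% of those tested against 6.71% of all genes. In edgeR 0 targets were called higher with the replicate block, the atrial covariate or the omission of any sham sample or ischemia replicate 3. Of all tested genes, 0 were called in these settings. With total counts, no filter or ischemia replicate 2 omitted, 0 targets were higher, against 509, 493 and 462 of all genes. Without ischemia replicate 1, 4 targets were higher and 4 lower, against 1490 and 1115 of all genes. DESeq2 called 5 higher and 5 lower, where 14.8% and 12.5% of all genes were called. Limma with a pseudocount of 1 called 0 higher and 2 lower, against 657 and 209 of all genes. The median log2 fold change was 0.03 with 16 above 0. Osgin1, an oxidative stress-induced growth inhibitor, had a log2 fold change of 1.51 ± 0.31 (SE; edgeR adjusted p 0.0446), with FPKM of 2.82, 2.51 and 2.92 in sham and 5.72, 12.8 and 6.85 in ischemia. Ugt1a6, a glucuronosyltransferase whose reads can be shared with other genes of the Ugt1a cluster, also rose, with 1.98 ± 0.43 (SE; edgeR adjusted p 0.0484). Its FPKM was 0.493, 0.412 and 1.05 in sham and 1.77, 4.09 and 2.27 in ischemia, without overlap.

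Aox1, an aldehyde oxidase, was the target gene that fell, with a log2 fold change of -3.33 ± 0.69 (SE; edgeR adjusted p 0.0458). In edgeR 0 targets were called lower with the replicate block, the atrial covariate or the omission of any sham sample or ischemia replicate 3. Of all tested genes, 0 were called in these settings. With total counts or no filter 0 targets were lower, against 83 and 93 of all genes. FPKM of Aox1 was 2.55, 2.11 and 4.24 in sham and 0.524, 0.0858 and 0.290 in ischemia. No overlap was seen between the groups, and ischemia replicate 2 was the lowest sample. The highest log2 fold change of the list belonged to Gpx2, the gastrointestinal glutathione peroxidase, at 2.97 ± 2.56 (SE; edgeR adjusted p 0.441). That value came from 1216 counts in ischemia replicate 1 alone, since ischemia replicates 2 and 3 had 0 counts and the sham samples 22, 4 and 115.

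Targets with other roles had values on both sides of 0. Of the non-oxidative pentose phosphate enzymes, Tkt had a log2 fold change of 0.05 (edgeR adjusted p 0.958), and Taldo1, with FPKM of 72.3, 70.1 and 107 for sham against 118, 291 and 127, lay wholly higher without passing (edgeR adjusted p 0.120). Txn1, the substrate of Txnrd1, had 0.71 ± 0.19 (SE; edgeR adjusted p 0.0712), with FPKM of 143, 92.2 and 156 in sham and 192, 279 and 203 in ischemia. Ferritin subunits, which store the iron that heme oxygenase releases, and whose reads can be shared with processed copies, had 0.48 for Fth1 and 1.15 for Ftl1 (edgeR adjusted p 0.357 and 0.143). The biliverdin reductases Blvra and Blvrb, the next step after heme oxygenase, had 0.02 and -0.50 (edgeR adjusted p 0.961 and 0.356). Gsta4, a glutathione transferase acting on lipid peroxidation products, had -1.53 ± 0.36 (SE; edgeR adjusted p 0.0539). None of these passed. Slc7a11, the cystine transporter that feeds glutathione synthesis, was below the expression filter, with 8, 0 and 0 counts in sham and 47, 705 and 79 in ischemia.

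Other antioxidant enzymes and related genes were read from a list of 30, all tested. Their place outside the target list does not mean that Nrf2 does not regulate them. At an edgeR adjusted p under 0.05, 0 were higher and 0 lower, and at an unadjusted p under 0.05 there were 3 higher and 7 lower, a share near the 32.4% of all tested genes. DESeq2 called 3 higher and 4 lower, where 14.8% and 12.5% of all genes were called, and limma on log2(FPKM + 0.1) called 1 higher and 2 lower, where 6.09% and 1.88% were. The median log2 fold change was -0.45, with 21 of 30 below 0. The highest value was that of Glrx, a cytosolic glutaredoxin, at 2.87 ± 0.67 (SE; edgeR adjusted p 0.0541), with FPKM of 10.9, 7.92 and 9.57 in sham and 23.4, 160 and 43.6 in ischemia. At the other end was Sod3, the extracellular superoxide dismutase, at -2.07 ± 0.71 (SE; edgeR adjusted p 0.110), with FPKM of 94.5, 73.8 and 160 in sham and 53.9, 8.18 and 18.0 in ischemia. No overlap was seen between the groups for either gene. Summed FPKM of 6 fibroblast markers, none of which passed, was 1144, 698 and 2247 in sham and 706, 279 and 271 in ischemia, so that ischemia replicates 2 and 3 were lowest for both these markers and Sod3. The part of fibroblasts in the value of Sod3 was not tested.

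**Figure D5:**
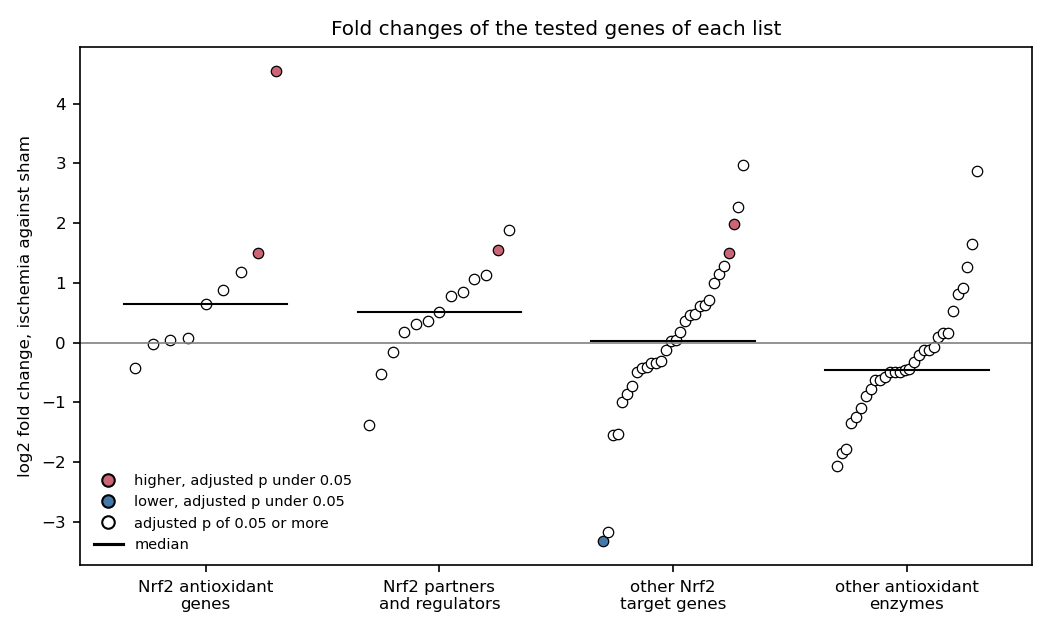
Log2 fold change of ischemia against sham (vertical axis) of each tested gene in 4 lists, sorted within the list, with the median as a line, red where a gene was higher and blue where it was lower at an edgeR adjusted p under 0.05. The medians are 0.64, 0.51, 0.03 and -0.45 from left to right.

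The genes whose profile over the 6 samples was most like that of Hmox1 and of Nfe2l2 were found by the root mean square difference of centred log2 CPM. For Hmox1 the nearest were Clec7a, a lectin receptor of myeloid cells, Socs3, an inhibitor of cytokine signaling, Fcgr2b, an inhibitory Fc receptor, Ch25h, a cholesterol hydroxylase, and Gjb2, a connexin, at differences of 0.24 to 0.34. For Nfe2l2 they were Rcor1, Med26, Dnase1l1, Elmo1 and Atp13a2, at differences of 0.058 to 0.074. The nearest genes to Hmox1 had log2 fold changes between 4.10 and 4.93, and those of Nfe2l2 between 0.56 and 0.67.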

How the data were processed

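RNA sequencing libraries of 3 sham and 3 ischemia myocardial samples were prepared by the authors with a stranded total RNA kit. The submitters' processing notes name STAR and HTSeq without versions, and the genome build is not given in the sources used here, so positions are those of the table. The deposited counts were raw whole numbers per Ensembl gene, and the deposited FPKM values were the authors' length- and depth-scaled form of them. For 7853 genes with at least 500 counts in every sample, the ratio of count to FPKM was constant per sample within 1% for 100% of genes.

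Counts were compared with the edgeR quasi-likelihood test after TMM scaling, with group as the single term, in the 13964 genes whose FPKM averaged 0.5 or more. Two-sided p-values received Benjamini-Hochberg adjustment across those genes (threshold 0.05), and SE was derived from the F statistic. The study speaks of independent experiments, but the labels do not say that the samples of a group came from separate rats, so p-values measure only the spread between these samples. Total counts of 68529126 to 79591989 made 3 counts equal to 0.0377 to 0.0438 CPM, a limit from counting error alone.

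The genes and lists were chosen with earlier results of these data known. Named were all 10 genes, called genes and the highest and lowest of each wider list, and the 5 nearest profiles of Hmox1 and Nfe2l2. Mafg, Mafk, Bach1, Taldo1, Tkt, Txn1, Fth1, Ftl1, Blvra, Blvrb, Gsta4, Slc7a11, Cd68, Cd163, Mrc1, Csf1r, C1qa, C1qc and Adgre1, the ratios and the match of Srxn1 by its NCBI gene number were chosen after the values were seen. Alternatives were limma on log2(FPKM + 0.1) and log2(FPKM + 1), DESeq2, other scalings and filters, an atrial covariate, a replicate block and omission of samples. Software was DESeq2 1.42.0, limma 3.58.1 and edgeR 4.0.16 in R 4.3.3, with figures from matplotlib 3.10.9 in Python 3.11.15.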

Additional observations from a re-analysis of the deposited data

How the results depend on the processing

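The direction of Hmox1, Txnrd1, Gclc, Gclm, Nfe2l2, Sod1, Sod2 and the Srxn1 row was the same under every alternative that gave a value, and none of the 9 genes was called lower. The Srxn1 row was below the filter at a mean FPKM of at least 5. Log2 fold changes ranged from 3.59 to 4.86 for Hmox1 and from 1.25 to 1.70 for Txnrd1, and each was called under 10 of 17 alternatives. DESeq2 called 4 of the 9 genes higher, and of all genes 2071 higher and 1742 lower. The replicate block, the atrial covariate and sham replicate 2 as the only sham sample (added after seeing the data, with the lone sample assumed to vary like the ischemia samples) each called 0 genes higher and 0 lower in edgeR, with 3349, 2295 and 1707 genes at an unadjusted p under 0.05. The replicate numbers were not taken as pairs in the main fit, and the block was an alternative. Deviations of same-numbered samples had correlations of -0.050, -0.074 and -0.19, which cannot decide on pairing with 3 samples per group. Without a filter 493 genes were higher and 93 lower, and with total counts 509 and 83, against 723 and 214 in the main fit. Limma called 850 and 657 genes higher and 262 and 209 lower (pseudocounts 0.1 and 1). At a mean FPKM of at least 5, 725 genes were higher and 291 lower. Omitting any sham sample or ischemia replicate 3 gave 0 called genes in either direction. Partners called higher were 2 at a mean FPKM of at least 5 and 4 with DESeq2, which called 1 lower. Other targets called higher were 1 and 0 with limma (pseudocounts 0.1 and 1), 0 without a filter, 1 at the higher filter, 0 with total counts and 5 with DESeq2, and those called lower were 2, 2, 0, 1, 0 and 5. Other antioxidant enzymes called higher were 1, 1 and 3 with both limma fits and DESeq2, and lower 2, 1 and 4, with 1 in each direction at the higher filter. Keap1 became 0.042 and 0.040 with the limma fits, 0.063 with total counts and 0.016 with the atrial covariate. Nqo1 became -0.0037 at the higher filter, -0.0053 with the atrial covariate and -0.24 with sham replicate 2 alone. Omitting single samples gave 0 to 1490 genes higher and 0 to 1115 lower, 0 to 3 of the 9 genes, 0 to 5 partners, 0 to 4 targets higher and 0 to 4 lower, and 0 to 3 enzymes higher and 0 to 5 lower. The medians then ranged from 0.27 to 0.81 for the 9 genes, 0.37 to 0.72 for partners, -0.26 to 0.22 for targets and -0.64 to -0.24 for enzymes, Keap1 from -0.21 to 0.13 and Nqo1 from -0.12 to 0.20. The median over the 9 genes was 0.27 without ischemia replicate 2. The causes of these changes were not tested.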

Other observations

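The table assigns 46 tested genes to glutathione metabolism, a pathway and examples chosen after the values were seen. Of these, 2 were higher and 0 lower at an edgeR adjusted p under 0.05, with a median log2 fold change of -0.17 and 21 above 0, where 5.18% of all tested genes were higher and 1.53% lower. No gene of the table was called in edgeR with the replicate block, the atrial covariate or any sham sample omitted. The 2 were Srm, spermidine synthase, and Anpep, an aminopeptidase also found on myeloid cells. FPKM of Srm was 10.4, 18.0 and 13.8 in sham and 39.3, 76.4 and 54.2 in ischemia (log2 fold change 1.87 ± 0.36 SE, edgeR adjusted p 0.0413). FPKM of Anpep was 5.62, 4.47 and 10.3 in sham and 18.4, 45.5 and 18.9 in ischemia (log2 fold change 1.93 ± 0.42 SE, edgeR adjusted p 0.0494). Gss, glutathione synthetase, which acts after Gclc and Gclm, did not pass (edgeR adjusted p 0.0574), with FPKM of 9.56, 6.79 and 12.5 in sham and 15.6, 20.5 and 20.4 in ischemia.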
